A study of Homo sapiens with 8 samples.

Results

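K562-only low-confidence intervals belong to the lower-confidence tier of the K562 G4 map. They are stretches that passed the peak caller in at least 2 of 8 K562 replicates, that overlap no K562 interval found in at least 5 of 8 replicates, and that overlap no HepG2 interval found in at least 2 of 9 replicates. The paper describes the replicates of each line as technical replicates of 3 independent experiments, so 2 of them can come from a single experiment. Outside the mitochondrial chromosome, 6973 of the 19231 K562 lower-confidence intervals (36.3%) met this rule, out of 47598 lower-confidence intervals in both lines. K562 is a chronic myelogenous leukemia cell line with erythroid features that carries the BCR-ABL1 fusion, and HepG2 is a hepatocellular carcinoma line. Both were grown untreated, and chromatin from each was precipitated with BG4, an antibody that binds folded G4s, and sequenced beside input chromatin. For each line the labels used here name 3 libraries precipitated for G4s and 1 of input, and each line enters as 1 merged list per threshold, with no peak height, read count or replicate attached to an interval. Depth is therefore unknown, no spread between replicates could be computed, and the 95% intervals given here cover the counting of intervals only. Neighbouring intervals are not independent of each other, so these intervals are too narrow where intervals cluster. The K562-only intervals were chosen by the replicate support and the overlap of the called peaks, so absence from HepG2 and low replicate support are not results.

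G-quadruplexes (G4s) are 4-stranded structures in which guanines of 4 nearby runs stack in flat tetrads. They form in single-stranded stretches of G-rich DNA, are found mostly in open chromatin at promoters, and can be unwound by helicases. RNase A treatment before precipitation removes RNA that the antibody could also bind. They were compared with 3 other lists: 3547 K562 low-confidence intervals that recur in the HepG2 lower-confidence list, 9205 K562 high-confidence intervals, and 15348 HepG2-only low-confidence intervals, which are the mirror image of the K562-only intervals in the other line. HepG2 high-confidence intervals require at least 6 of 9 replicates.

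The motifs that follow show what G4-forming sequence looks like in these intervals. Each is the leftmost complete motif in an interval at a gene promoter or in an interval singled out for its width or number of motifs, written 5′ to 3′ on its G-rich strand with the G-runs in capitals (hg19).
LMO2 promoter, chr11:33892147-33892165, plus strand: GGGaGGGtggctGGGaGGG
HBZ 5′ UTR, chr16:202696-202722, minus strand: GGGcctggtGGGactGGGGtttGGGGG
ITGB3 promoter, chr17:45331109-45331130, minus strand: GGGtGGGacgcaacGGGGcGGG
NRAS promoter, chr1:115259484-115259501, minus strand: GGGaGGGGcGGGtctGGG
EZH2 promoter, chr7:148580839-148580860, minus strand: GGGagcgcccGGGtGGGacGGG
SRSF2 promoter, chr17:74732600-74732621, minus strand: GGGcGGGagcgcgcGGGcGGGG
RPL10 promoter, chrX:153626026-153626048, plus strand: GGGacggtgcGGGtcaGGGtGGG
CYP2E1 promoter, chr10:135333816-135333838, plus strand: GGGcGGGGcccGGGtgagcGGGG
FERMT3 promoter, chr11:63975168-63975185, minus strand: GGGaagaGGGtGGGaGGG
SRPK3 promoter, chrX:153041924-153041947, plus strand: GGGacGGGGcgaggcaGGGcGGGG

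A G4 motif was counted where 4 G-runs, each 3 bases or longer and separated by 1 to 7 bases, lay on either strand. It was present in 1064 of the K562-only low-confidence intervals (15.3%, 14.4 to 16.1). That was close to the 15.8% of recurring low-confidence intervals (14.6 to 17.0), below the 32.6% of K562 high-confidence intervals (31.6 to 33.5) and above the 7.83% of HepG2-only low-confidence intervals (7.41 to 8.26). The genome as a whole had a motif in 1.36% of windows of 130 bp, the median width of the K562-only intervals, and windows that touch a promoter had one in 4.31%. A run of 3 G on one strand or the other was present in 96.3% of K562-only intervals, with or without a complete motif. It was present in 98.0% of recurring, 98.3% of K562 high-confidence and 94.6% of HepG2-only intervals. In K562-only intervals 75.8% held 4 runs of at least 2 G, against 83.3%, 89.6% and 63.6% in the same order.

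Motif content moved with width. The K562-only intervals had a median width of 130 bp (middle 50%, 98 to 175) against 160 bp for recurring and 195 bp for high-confidence intervals, and 690 of them measured under 50 bp, of which 13 were 1 bp wide. The motif share climbed from 1.16% below 50 bp to 13.2% at 100 to 149 bp and 26.5% at 200 to 249 bp. Against high-confidence intervals the odds ratio of a motif was 0.373 (0.344 to 0.403), and within width classes of 50 bp it was 0.639 (0.585 to 0.697). These 2 lists are cut at different replicate thresholds, which also bears on their widths. At the same threshold, 46.3% of K562 lower-confidence intervals that hold a high-confidence interval had a motif. Against these the odds ratio of a motif was 0.209 (0.193 to 0.226), and within width classes 0.775 (0.687 to 0.875). Against recurring intervals the odds ratio of a motif was 0.960 (0.859 to 1.07) over all widths, an interval that includes 1, and 1.27 (1.13 to 1.43) within width classes. This turn held for the motif with runs of at least 3 G. For the 2-G motif the odds ratio within width classes was 0.936 (0.832 to 1.05), an interval that includes 1. In windows of equal length, 100 bp on either side of each centre, a motif of runs of at least 3 G was present in 22.9% of K562-only intervals. It was present in 19.5% of the recurring windows (odds ratio 1.23, 1.11 to 1.36), an interval that excludes 1. In high-confidence windows it was present in 34.2% (odds ratio 0.572, 0.533 to 0.614). Against HepG2-only intervals the odds ratio for runs of at least 3 G was 2.12 with and without width classes (1.94 to 2.32 without). When 50 bp were added on each side, 719 further K562-only intervals gained a motif and the share reached 25.6%, and with loops of up to 12 bases it was 26.5%.

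**Figure D1:**
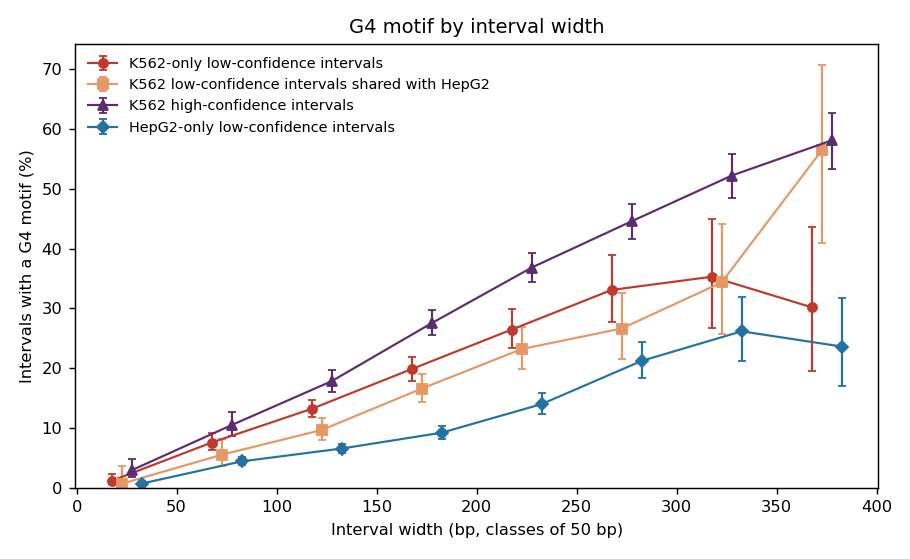
Share of intervals with a complete G4 motif (y axis, %) by interval width (x axis, bp in classes of 50 bp) in 4 lists, with 95% Wilson intervals as bars. K562-only low-confidence intervals lie between the K562 high-confidence and the HepG2-only low-confidence intervals in the classes up to 349 bp, at 26.5% against 36.8% and 13.99% at 200 to 249 bp.

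Among the 1064 intervals with a motif, 484 had it on the plus strand alone, 520 on the minus strand alone, and 60 had one on each strand. Repeats of a motif were uncommon, with 199 intervals holding at least 2 and 33 holding at least 3. The interval with the most, 11 motifs on the plus strand in 484 bp, lies at the promoter of SRPK3, a muscle protein kinase gene (chrX:153041867-153042350), and its leftmost motif is printed above. The leftmost motifs and those that follow them gave 1308 different sequences, of which 1305 occurred in 1 interval only. The 3 that recur are all runs of G broken by single C bases or by a short loop, and are printed here because they are the only sequence element shared letter for letter.
Found in 3 intervals, first at chr1:3634739-3634941: GGGGcGGGGcGGGGcGGGG
Found in 3 intervals, first at chr1:15250547-15250648: GGGGGcGGGGcGGGGGcGGGG
Found in 2 intervals on chromosome 19, first at chr19:5293171-5293411: GGGGGcGGGGcaaGGGGcGGGG

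Base composition separated the lists along the same lines. Median GC content was 65.1% in K562-only intervals, 65.2% in recurring, 70.3% in K562 high-confidence and 60.2% in HepG2-only intervals. CpG dinucleotides were scarcer, however. The median ratio of observed to expected CpG in the window of 100 bp on either side of the centre was 0.429, against 0.725 in recurring and 0.842 in high-confidence intervals, and 0.284 in HepG2-only intervals. The medians of K562-only and recurring intervals were thus close in GC content and apart in CpG content. CpG islands, which mark the promoters of widely expressed genes, are rich in both.

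A smaller share of the K562-only intervals lay at promoters than in the other K562 lists. A promoter, defined as 1 kb of sequence upstream of a transcription start site (TSS) in the annotation, was touched by 2760 intervals (39.6%, 38.4 to 40.7). Recurring low-confidence intervals did so in 65.4% of cases (odds ratio 0.346, 0.318 to 0.376) and high-confidence intervals in 81.1% (odds ratio 0.153, 0.142 to 0.164), whereas HepG2-only intervals did so in 26.3% (odds ratio 1.84, 1.73 to 1.95). Within width classes these odds ratios were 0.363, 0.187 and 1.84. Introns took 33.3% of the K562-only centres and intergenic sequence 16.1%, against 18.7% and 10.3% of recurring and 10.4% and 5.99% of high-confidence centres. Coding exons took 3.86%, 3′ UTRs 3.37% and 5′ UTRs 2.21%. A motif was more frequent in the K562-only intervals that touch a promoter (21.96%, 20.5 to 23.5) than in the others (10.9%, 9.97 to 11.8), which were of similar median width (133.5 and 128 bp).

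Around a TSS the K562-only intervals were spread more evenly to either side than the other K562 lists, and less evenly than the HepG2-only intervals. Their centres lay within 1 kb of a TSS in 51.1% of cases, against 72.5% of recurring and 85.3% of high-confidence centres. The median position of those centres was -6 bp, where negative values are upstream, and 52.7% were upstream, whereas high-confidence centres had a median of -46 bp with 77.4% upstream. The middle 50% of the K562-only centres reached from -94.5 to 206 bp, and that of high-confidence centres from -98 to -4 bp, so the difference lay on the transcribed side. HepG2-only centres had a median of 0 bp with 49.8% upstream and a middle 50% from -176 to 302 bp. Beyond 10 kb of any TSS lay 15.1% of the K562-only intervals (14.3 to 15.9), 6.79% of recurring, 4.20% of high-confidence and 19.2% of HepG2-only intervals. Of the intervals with a motif on 1 strand, the G-rich strand was the sense strand in 126 of 210 cases within 1 kb downstream of a TSS (60.0%, 53.3 to 66.4) and in 183 of 338 cases upstream (54.1%, 48.8 to 59.4). The downstream share was 63.7% in recurring (54.5 to 72.0) and 62.8% in high-confidence intervals (57.8 to 67.5).

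**Figure D2:**
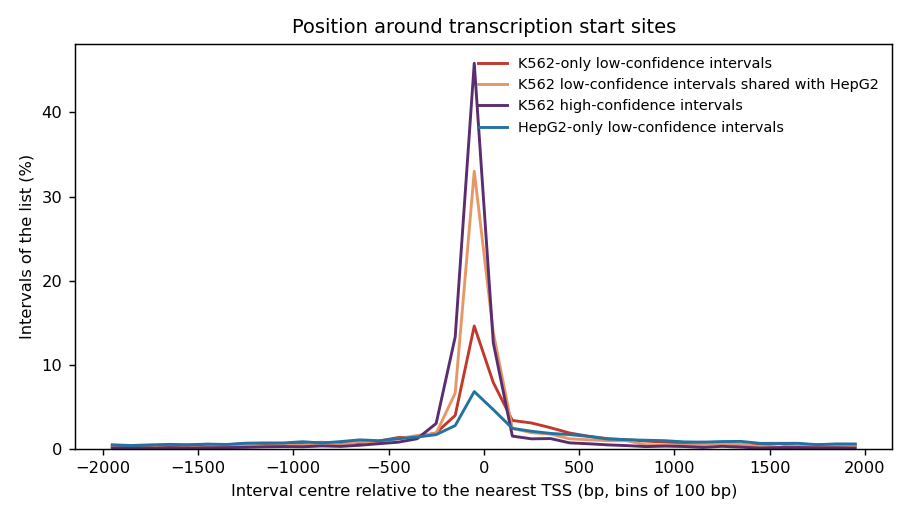
Share of the intervals of each list (y axis, %) by the position of their centre relative to the nearest TSS (x axis, bp in bins of 100 bp, negative upstream). K562-only low-confidence intervals peak just upstream of the TSS like the other lists but lower than recurring and high-confidence intervals, and extend further downstream, with 51.1% of all centres within 1 kb.

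Away from promoters, the sequence around the K562-only intervals carried the recognition letters of blood transcription factors more often than the HepG2-only intervals did, and those of the liver factors HNF4 and FOX less often. Letters of some factors of no single lineage were also more frequent. GATA1 and GATA2 are zinc finger factors that drive erythroid and blood progenitor genes and bind AGATAA. HNF4 is a nuclear receptor of hepatocytes, and FOX factors open chromatin at liver genes. The letters were searched on both strands within 100 bp on either side of each centre. Factor binding was not measured here, and a match is a description of sequence, not a site.

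AGATAA stood near 499 of 3410 K562-only centres beyond 1 kb of a TSS (14.6%, 13.5 to 15.9) and near 526 of 9725 such HepG2-only centres (5.41%, 4.98 to 5.88), an odds ratio of 3.00 (2.63 to 3.41). Because these letters are A- and T-rich and the K562-only windows hold more G and C, the comparison was also made within GC classes of 5 percentage points, where the odds ratio was 4.94 (4.28 to 5.69). Over the whole genome, which has a GC content of 40.9%, 14.8% of windows of the same length held the letters. Recurring low-confidence centres beyond 1 kb had them in 6.36% of cases (odds ratio 2.52, 1.92 to 3.32). High-confidence K562 centres beyond 1 kb had them in 15.8% (odds ratio 0.914, 0.768 to 1.09), an interval that includes 1. K562-only intervals with AGATAA were seldom motif-bearing. Of the 499, 24 held a G4 motif (4.81%, 3.25 to 7.06), against 11.1% of the 2911 without the letters (9.97 to 12.3), and their windows had a median GC content of 54.2% against 62.7%.

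TGAGTCA, the letters of NFE2, an erythroid and megakaryocyte factor, and of the AP-1 family, stood near 10.8% of the K562-only centres beyond 1 kb and 6.75% of the HepG2-only ones (odds ratio 1.68, 1.47 to 1.92), near 17.0% of the K562 high-confidence ones (odds ratio 0.594, 0.497 to 0.709), near 9.95% of the recurring ones (odds ratio 1.10, 0.868 to 1.39) and near 11.9% of HepG2 high-confidence ones (odds ratio 0.902, 0.764 to 1.07). The intervals of the last 2 odds ratios include 1. CCACACCC, the box bound by KLF1, a red cell factor, was near 6.04% and 3.71% (odds ratio 1.67, 1.40 to 1.99). Against recurring centres (6.15%) its odds ratio was 0.980 (0.729 to 1.32), and against K562 high-confidence centres (7.16%) it was 0.834 (0.649 to 1.07). The HNF4 letters CAAAGTCCA were near 3 of 3410 K562-only centres (0.0880%) and 164 of 9725 HepG2-only centres (1.69%), an odds ratio of 0.0513 (0.0164 to 0.161). Within GC classes it was 0.0640 (0.0200 to 0.205). The FOX letters TGTTTAC were near 1.38% and 4.46% (odds ratio 0.299, 0.221 to 0.405). HNF4 letters were near 0.148% of K562 high-confidence and 0.205% of recurring centres (odds ratios 0.596, 0.0994 to 3.57, and 0.428, 0.0715 to 2.57). FOX letters were near 1.99% and 2.97% in the same order (odds ratios 0.687, 0.426 to 1.11, and 0.456, 0.285 to 0.728). Of these intervals only the last excludes 1. The E-box CACGTG, bound by widely expressed factors, was near 5.95% of K562-only and 6.15% of HepG2-only centres. Its odds ratio was 0.966 (0.820 to 1.14), an interval that includes 1. Letters of other widely expressed factors beyond 1 kb were more frequent than in HepG2-only intervals, with odds ratios of 2.00 (1.82 to 2.21) for the SP box, 4.09 (2.06 to 8.11) for NRF1 and 2.14 (1.10 to 4.19) for ETS. CEBP letters (TTGCGCAA) were near 1 K562-only and 7 HepG2-only centres, too few to compare. Only the AGATAA and HNF4 letters were compared within GC classes, so for the other letters the difference in base composition was not taken into account. Over all genome windows the share was 3.07% for TGAGTCA, 1.61% for CCACACCC, 0.255% for the HNF4 letters and 3.13% for the FOX letters. The K562-only shares thus lay below the genome for HNF4 and FOX.

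Letters of factors of housekeeping promoters were rarer than in the other K562 lists when all centres were taken. The SP box GGGCGG was near 39.0% of K562-only, 50.9% of recurring, 74.5% of high-confidence and 19.5% of HepG2-only centres. NRF1 letters (GCGC, any base, then TGCGC) were near 1.95%, 6.60%, 11.2% and 0.782%. ETS letters (CCGGAAGT) were near 1.39%, 6.57%, 4.55% and 0.788%. The share in genome windows was 2.90% for the SP box, 0.0301% for NRF1 and 0.0938% for ETS. GGGCGG can overlap a G-run, so its counts and those of the G4 motif are not separate.

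**Figure D3:**
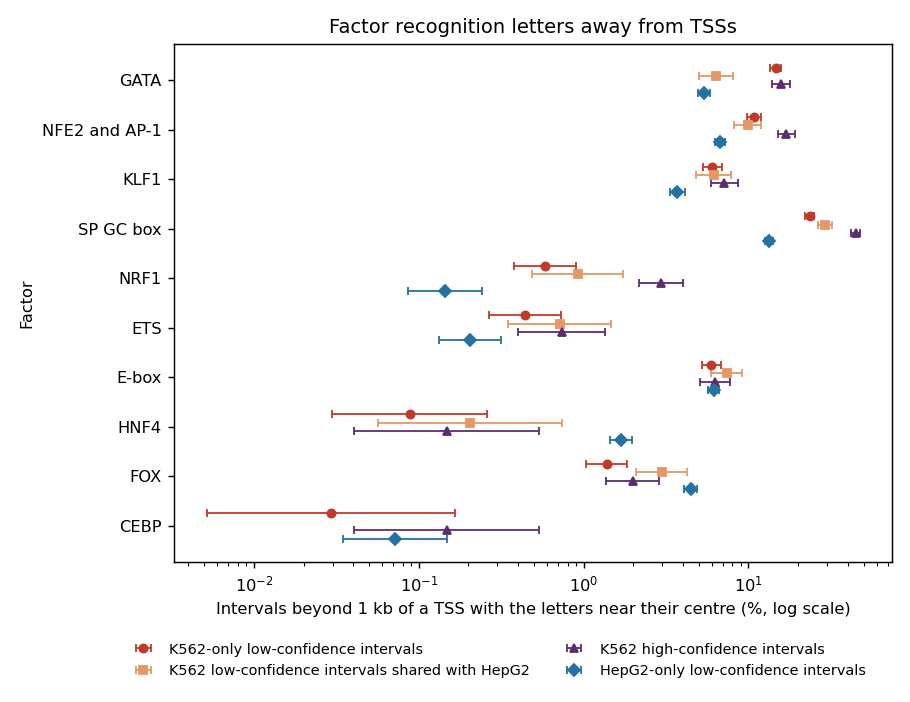
Share of interval centres beyond 1 kb of a TSS with the recognition letters of a factor within 100 bp on either side (x axis, %, log scale), by factor (y axis) and list, with 95% Wilson intervals as bars. A list without a match is not drawn. K562-only low-confidence intervals sit with the K562 high-confidence intervals for GATA (14.6% and 15.8%) and far below the HepG2-only intervals for HNF4 (0.0880% and 1.69%). The HNF4 share was also low in K562 high-confidence intervals (0.148%).

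Protein-coding genes with a K562-only interval in a promoter numbered 2055 of 20136, or 10.2%, and 16.9% had one in the gene body. The first number was 3352 when only overlap with the HepG2 high-confidence list counted as shared. Of these 2055 genes, 858 also had a K562 high-confidence interval in a promoter, 1054 (51.3%) a HepG2 lower-confidence one, and 875 had no other interval of either line there. The gene lists used here were drawn up from textbook roles. Among 22 transcription factors of the blood lineages, 7 had a K562-only interval in a promoter (31.8%) and 12 in the gene body (54.5%), while 3 had a HepG2-only interval in a promoter, for which the background was 13.4%. A HepG2-only interval lay in the body of 8 of these genes (36.4%) against a background of 26.2%, and a K562 high-confidence interval in a promoter of 12 (54.5%) against 34.6%. Among 34 erythroid genes (globins, heme synthesis, red cell membrane), 5 had a K562-only interval in a promoter and 14 in the body (41.2%), and 8 had a HepG2-only interval in the body (23.5%). The median length was 21.6 kb for the erythroid and 35.7 kb for the blood factor genes, against 27.2 kb for all protein-coding genes. Among 28 hepatocyte genes, 1 had a K562-only interval in a promoter (3.57%) and 5 a HepG2-only one (17.9%), against backgrounds of 10.2% and 13.4%. In the body 4 had a K562-only interval (14.3%) and 13 a HepG2-only one (46.4%), against 16.9% and 26.2%.

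The blood transcription factors with a K562-only interval in a promoter were GATA1, GATA2, LMO2, KLF1, RUNX1, GFI1B and LDB1. LMO2 and LDB1 encode bridging proteins that join GATA1 to its partners. GATA1 had an interval of 107 bp centred at position -540 from its TSS, where negative is upstream (chrX:48644355-48644461, GC 65.4%, no motif). At GATA2 the interval was 88 bp wide and lay only 140 bp from a K562 high-confidence and 26 bp from a HepG2 interval (chr3:128207056-128207143), where 1 bp stands for abutting intervals. The LMO2 interval (chr11:33892050-33892170, 121 bp, GC 71.9%) was centred at -35 from a TSS and lay 95807 bp from the nearest high-confidence interval, and it contains the motif printed first. KLF1 had 3 intervals in its gene, of which the one at the TSS (chr19:12997845-12998082, 238 bp) had no motif, and a 54 bp interval in a coding exon had 1.

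Globin genes were represented at several places. The HBA1 interval (chr16:226606-226720, 115 bp) was centred at -16 from the TSS, although HBA1 and HBA2 are near-identical copies, so reads cannot be assigned to either with certainty. HBZ, the embryonic alpha-type globin gene, had an interval at its 5′ UTR with the motif printed above (chr16:202633-202723) and another in an intron of a longer annotated transcript. HBG2 and HBE1 were both counted for 1 interval of 52 bp at a far upstream annotated start of these genes (chr11:5526944-5526995), whose nearest TSS is that of the olfactory receptor gene OR51B5. Their long annotated gene bodies also shared 2 intervals upstream of HBE1, where the locus control region of the beta-globin cluster lies. KEL, a red cell membrane antigen gene, had an interval of 181 bp centred at -11 from its TSS (chr7:142659371-142659551). The heme synthesis gene FECH had 1 interval inside the gene and none in a promoter.

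Of the 20 gene and interval pairs in erythroid genes, 6 had AGATAA near the centre and 3 had a G4 motif, with the intervals upstream of HBE1 counted for HBE1 and for HBG2, and of the 26 in blood factor genes, 4 had each. Over all K562-only intervals AGATAA was near 9.55% of centres (666 of 6973) and a motif was present in 15.3%. Most of the pairs lay in introns, and beyond 1 kb of a TSS AGATAA was near 14.6% of K562-only centres. Sites with AGATAA are printed to show the letters in context, with AGATAA in capitals, written on the strand that holds them. They were chosen after their values were seen.
FECH intron, chr18:55250722-55250743, plus strand: tgctgtgaAGATAAgaggggaa
Upstream of HBE1, chr11:5297180-5297201, plus strand: gtggatatAGATAAgagctcag
KEL promoter, chr7:142659499-142659520, minus strand: agaagctgAGATAAagggggag
NFE2 intron, chr12:54688115-54688136, minus strand: ttgaccctAGATAActgcagca
IKZF1 intron, chr7:50427894-50427915, minus strand: gaggccagAGATAAgtaatctc
RUNX1 intron, chr21:36478698-36478719, plus strand: ctgctgacAGATAAgtgggagc
LDB1 intron, chr10:103872287-103872308, plus strand: ggcctaccAGATAAccagttgg

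FECH catalyses the last step of heme synthesis, and its interval lay 148008 bp from the nearest K562 high-confidence interval. ZFPM1, which encodes the GATA1 cofactor FOG1, held 11 K562-only intervals in its introns, the most of the 22 blood factors. They ranged from 8 to 222 bp in width, and 1 of them had a motif.

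The other gene lists lay on both sides of the background of 10.2%. Chromatin regulators had a K562-only interval in a promoter of 16 of 47 (34.0%). These are long genes with a median of 77.1 kb, and 36 of them also had a K562 high-confidence interval. The first in list order were EZH2, a histone methyltransferase whose interval (chr7:148580776-148580913) lay 430 bp from a high-confidence interval, KMT2D, KDM2B and KAT2A. Cyclins and cyclin-dependent kinases had 9 of 38, among them CCNB2, CCND2, CCND3 and CCNF. DNA replication genes had 7 of 40, among them the helicase subunit genes MCM4 and MCM6, ORC5, and CDC45 on chromosome 22. BCR-ABL1 signalling genes had 5 of 28 (17.9%), which were BCR, SOS1, JAK2, NRAS and DOK1. HepG2-only intervals lay in a promoter of more of these 28 genes, 9 (32.1%), against their background of 13.4%. The JAK2 interval was 5 bp wide, and the NRAS interval (chr1:115259388-115259505, 118 bp) lay 40768 bp from the nearest high-confidence interval. Splicing factors had 4 of 42, cytosolic ribosomal protein genes 3 of 38, megakaryocyte and platelet genes 1 of 16 (ITGB3), lymphoid and myeloid markers 1 of 18 (ELANE) and G4-resolving helicases none of 12. In the gene body, 1 of the 16 megakaryocyte and platelet genes had a K562-only interval (6.25%) and 6 a HepG2-only one (37.5%). Of the 18 lymphoid and myeloid markers, 0 had a K562-only interval in the body and 4 a HepG2-only one (22.2%). The backgrounds were 16.9% and 26.2%, so these 2 blood lists went the other way from the blood factor and erythroid lists. High-confidence intervals were present at promoters of 28 of the 40 replication genes, 27 of the 42 splicing factors, 20 of the 38 ribosomal protein genes and 8 of the 12 helicases, where 34.6% of all genes had one. HepG2-only intervals lay in a promoter of 9 of the 40 replication genes, 8 of the 42 splicing factors and 6 of the 38 ribosomal protein genes. They did so in 9 of the 47 chromatin regulators, 5 of the 38 cyclins and kinases and 1 of the 12 helicases. None of the megakaryocyte and platelet genes or the lymphoid and myeloid markers had one.

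K562-only intervals were unevenly spread over the genome. The rule compares the lines, so the balance between them is given as a description with no test. Of the low-confidence intervals found in 1 line only, 31.2% were K562-only over the genome. The share was highest on chromosome X (70.5%, 129 K562-only and 54 HepG2-only intervals) and chromosome 22 (52.7%, 593 and 533), and lowest on chromosome 20 (7.97%, 118 and 1362) and chromosome 14 (11.2%, 87 and 687). When blocks of 1 Mb were counted in place of intervals, chromosomes X and 22 had 59.3% and 47.5%, and chromosomes 20 and 14 had 38.8% and 34.7%. No share by blocks was computed for the whole genome, so these values cannot be set against the 31.2% of intervals. In K562-only intervals per Mb, chromosomes 19 and 22 led with 11.6 each against 2.25 for the genome. Chromosome 19 had still more K562 high-confidence and HepG2-only intervals per Mb (17.8 and 14.8), and chromosome 22 had fewer (5.65 and 10.4). K562-only intervals were 34.9% of the K562 lower-confidence intervals of chromosome 19 and 60.8% of those of chromosome 22, against 36.3% over the genome. The lists were not corrected for DNA copy number, which was not analysed here.

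**Figure D4:**
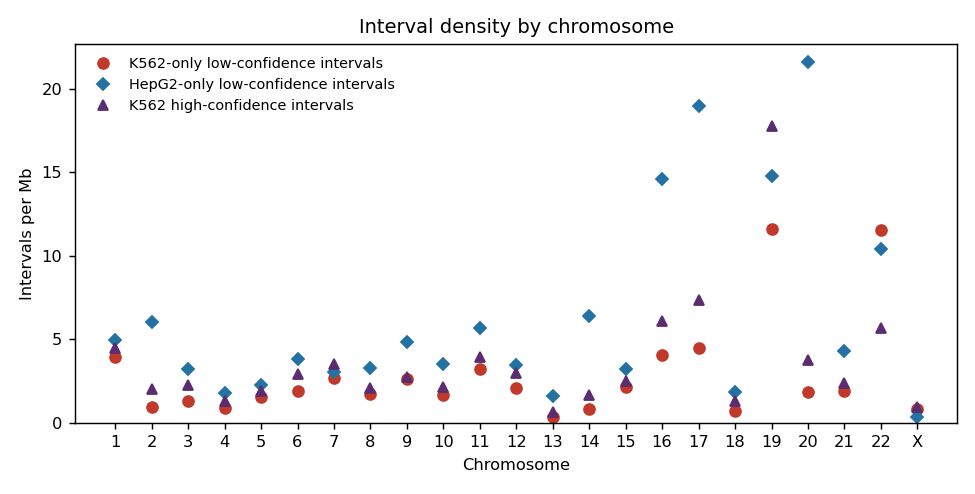
Intervals per Mb (y axis) on each chromosome (x axis, those with at least 20 intervals found in 1 line only) for K562-only low-confidence, HepG2-only low-confidence and K562 high-confidence intervals. Chromosomes 19 and 22 have the most K562-only intervals, with 11.6 per Mb each. Chromosome 19 is also dense in K562 high-confidence (17.8 per Mb) and HepG2-only intervals (14.8 per Mb). Chromosome 20 stands out for the HepG2-only intervals with 21.6 per Mb.

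Most K562-only intervals of chromosome 22 lay on one side of BCR. Of its 593 K562-only intervals, 517 (87.2%) lay between the start of the chromosome and the end of BCR, at position 23660224. K562 high-confidence intervals lay there in 143 of 290 cases (49.3%) and HepG2 high-confidence intervals in 37 of 242 (15.3%). Recurring low-confidence intervals lay there in 38.1% of cases, and HepG2-only intervals in 13.1%. A larger share on this side than in HepG2 was thus seen in all K562 lists. The 2 fullest blocks of 1 Mb in the genome lay here, from 19 to 20 Mb and from 20 to 21 Mb, with 148 K562-only intervals each. They held 45 and 28 K562 high-confidence intervals, 20 and 14 HepG2-only intervals, and the TSSs of 21 and 19 protein-coding genes. The next block, on chromosome 1 from 1 to 2 Mb, had 88 K562-only intervals and 41 such genes, and the number of HepG2-only intervals there was much the same (87). The 10 fullest of 3113 blocks held 806 K562-only intervals (11.6%), and 1702 blocks held none. The median block held 0.

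BCR is the partner that gives the start of the fusion gene and ABL1 the tyrosine kinase gene that gives its end. In the 2 Mb before BCR there were 145 K562-only intervals, inside the gene 19, and in the 2 Mb after it 5, although 36 protein-coding TSSs lie after and 23 before. HepG2-only intervals ran the other way, with 16, 1 and 50. In the same order, K562 high-confidence intervals numbered 39, 6 and 12, and HepG2 high-confidence intervals 10, 1 and 25. At ABL1 on chromosome 9 there were 26 K562-only intervals in the 2 Mb before the gene, none inside it and 77 in the 2 Mb after it, against 38, 4 and 12 HepG2-only and 29, 0 and 18 K562 high-confidence intervals. The second widest K562-only interval of all, 742 bp, lies just past ABL1 (chr9:133776684-133777425), and the widest, 777 bp, at an internal TSS of MED15 on chromosome 22 (chr22:20936150-20936926).

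**Figure D5:**
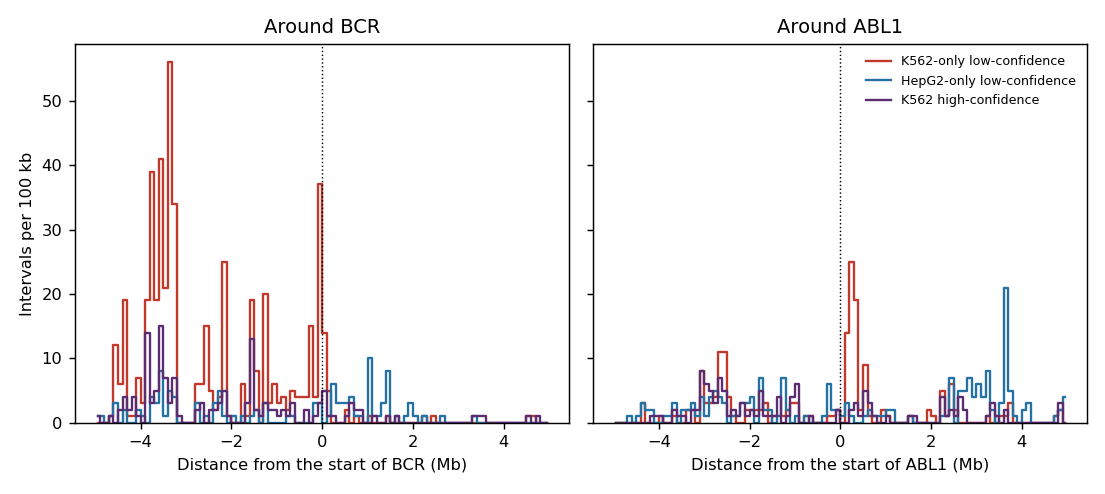
Number of intervals per 100 kb (y axis) by distance from the start of BCR (left) and ABL1 (right) along the chromosome (x axis, Mb), for K562-only low-confidence, HepG2-only low-confidence and K562 high-confidence intervals. The dotted line marks the start of the gene. K562-only intervals are dense before and at BCR (145 in the 2 Mb before it, 5 in the 2 Mb after it) and just after ABL1 (77 in the 2 Mb after it, 26 in the 2 Mb before it).

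The K562-only intervals on chromosome 22 up to the end of BCR differed from the others in where they lay. They touched a promoter in 19.1% of cases (16.0 to 22.8), against 38 of the 76 after BCR and 41.1% of those on other chromosomes (39.9 to 42.3). In the same order, a G4 motif was present in 12.8% (10.2 to 15.9), 19 of the 76 and 15.3% (14.5 to 16.3). Without chromosome 22, the odds ratio of AGATAA beyond 1 kb of a TSS against HepG2-only intervals was 3.34 (2.93 to 3.81), and only 3.21% of the AGATAA-bearing intervals lay on that chromosome.

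Some K562-only intervals were neighbours of stronger ones. Within 1 kb of a K562 high-confidence interval lay 1283 of 6967 (18.4%, 17.5 to 19.3) on chromosomes that have one, against 9.88% of HepG2-only intervals in relation to their own high-confidence list (9.42 to 10.4). Recurring K562 intervals did so in 16.6% of cases (15.5 to 17.9). The first share was 10.3% when K562 intervals within 500 bp of a HepG2 interval were left out as shared. Those close by touched a promoter in 59.9% of cases and held a motif in 17.9%, and the others did so in 35.0% and 14.7%. A further 1194 (17.1%) were more than 100 kb from any high-confidence interval. With respect to the threshold of the rule, 10 K562-only intervals abutted a HepG2 interval without overlap and 42 lay 1 to 10 bp from one, while 9 K562 intervals were left out for an overlap of 1 bp and 72 for one of 2 to 10 bp. Of the 3 abutting intervals named by the rule, 1 was in an exon near a TSS of C1orf159 (chr1:1019160-1019316, 157 bp) and 1, of 6 bp, in a coding exon of AHDC1.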

How the data were processed

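G4 ChIP-seq data of K562 and HepG2 were used as deposited by the authors. Reads were trimmed with cutadapt, aligned to hg19 with BWA, freed of duplicates with Picard and samtools, and peaks of every replicate were called with MACS2 (q-value below 0.05). The authors merged 8 K562 and 9 HepG2 replicates from 3 experiments per line with bedtools multiinter. The replicates within an experiment are technical replicates, so replicate support is not support from independent experiments. The 4 deposited lists hold interval positions in bp and no other value. Replicate intervals and depth are unknown.

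Overlaps (at least 1 bp), distances, G4 motifs and recognition letters were computed in Python 3.11.15 with numpy 2.4.6 on GRCh37, with GENCODE version 44 lifted to that build. Odds ratios have Woolf intervals, those within width or GC classes are Mantel-Haenszel estimates, and shares have Wilson intervals. No p-value was computed. The interval functions equalled a direct search in 100% of 2000 simulated cases, and 95.2% of 2000 simulated odds ratio intervals held the true value (94.55% within width classes). The K562-only intervals, gene lists and tests were chosen with earlier results of these data known, and recognition letters after the files were opened. Named intervals were the 5 widest, the 5 with most motifs, up to 4 listed genes per gene list in list order, the extreme chromosomes, the 3 fullest blocks and those nearest a HepG2 interval. Sequences on chromosome 8 are not shown. Alternatives were other overlap, width, motif, promoter and list definitions.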

Additional observations from a re-analysis of the deposited data

Results flagged for a closer look

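The contrast between low-confidence and high-confidence intervals in G4 motif content was set side by side in both lines. In K562 the odds ratio of a motif in K562-only low-confidence against high-confidence intervals was 0.373 (15.3% against 32.6%), and in HepG2 the matching odds ratio was 0.326 (7.83% against 20.6%). Dividing the first by the second gave 1.14 (95% interval 1.02 to 1.28, from the normal approximation on the log scale), and it is listed because that interval lies above 1, though its lower end is close to 1. The interval takes single peaks as the units and is too narrow where they cluster. Each line is 1 merged list per threshold with other replicate numbers behind it, so a difference between the cell lines is not shown. For promoters the ratio of the odds ratios was 0.981 (0.895 to 1.07), an interval that includes 1.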

How the results depend on the processing

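Over 18 results and 137 alternatives, 106 values kept their direction and stayed on the same side of the threshold or within the spread, 24 moved, 2 passed the threshold that the value as reported did not, and 5 turned direction, all of them the odds ratio of a motif against recurring intervals. No paired analysis was possible because each line has 1 merged list per threshold and the results come from no test between replicates, and for the same reason no replicate could be left out. The alternatives without chromosome 22, with GC classes, with the letters searched in the interval itself and with lower-confidence intervals that hold a high-confidence one were added after seeing the data. The motif share was 16.8% with intervals of at least 50 bp only, 19.2% with at least 100 bp, 75.8% with runs of at least 2 G, 26.5% when loops could reach 12 bases and 25.6% with 50 bp added on each side. The odds ratio of a motif against recurring intervals was 0.960 as reported (an interval that includes 1), 0.628 with the 2 G definition and 0.904 with the longer loops. It lay above 1 at 1.07 with 50% of the interval covered, 1.03 and 1.09 with at least 50 and 100 bp, 1.07 with 50 bp added on each side and 1.27 within width classes, and of these 5 only the width classes gave an interval that excludes 1 (1.13 to 1.43). Within width classes the 2 G definition gave 0.936 (0.832 to 1.05) and the longer loops 1.21 (1.10 to 1.34). In windows of 100 bp on either side of the centre, which are not counted among the 137 alternatives, it was 1.23 (1.11 to 1.36). The promoter share was 41.0% with at least 50% of the interval covered, 35.0% with intervals of the other line within 500 bp counted as shared, 45.2% with the high-confidence list of the other line, 41.1% without chromosome 22, 27.4% with TSSs of protein-coding transcripts only, 51.9% with 1 kb on either side of a TSS and 37.0% with the centre in the promoter. The share within 1 kb of a high-confidence interval was 10.3% with the 500 bp rule, 16.7% with at least 50 bp and 16.2% with at least 100 bp. Median GC content was 64.1% with the 500 bp rule and 65.4% without chromosome 22. Genes with an interval in a promoter numbered 3352 with the high-confidence list of the other line. Counting blocks of 1 Mb in place of intervals gave K562-only shares of 59.3% for chromosome X, 47.5% for 22, 38.8% for 20 and 34.7% for 14; chromosome 22 had 57.8% with at least 100 bp and chromosome 20 had 6.55% with the 500 bp rule. Depth limits all of these, since absence from a list says only that too few replicates had a called peak.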
